A study of Mus musculus with 9 samples.

Results

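T-cell receptor alpha (TRA) junctions in which the V gene met the J gene with no base between them made up 3853 of 21997 distinct productive TRA junctions in 8 tables of single-cell receptor sequences. Of these, 2346 of 12871 lay in the 6 libraries of the main comparison. A junction, the stretch from the conserved cysteine of the V gene to the conserved phenylalanine or tryptophan of the J gene, was counted as having no added bases when the deposited length of the region between V and J was 0. A distinct junction was a combination of TRAV subgroup, TRAJ gene and junction nucleotides, counted 1 time per table. The members were thus chosen by the measured number of added bases, which is described and not tested.

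During T-cell development in the thymus the RAG recombinase joins a V segment to a J segment, and exonucleases may trim the ends before they are ligated. Terminal deoxynucleotidyl transferase (TdT) can add bases that neither segment encodes, and opened hairpins can leave short palindromic additions, which the deposited length also includes. Chains joined without additions can be made again and again from germline segments, and the semi-invariant chains of invariant natural killer T (iNKT) cells and mucosal-associated invariant T (MAIT) cells are known for such joins.

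Female mice, wild-type (WT) or 5xFAD, aged 10 to 11 months and with no treatment named in the labels, gave cells from 3 kinds of lymph node: inguinal (iLN), deep cervical (dCLN) and superficial cervical (sCLN). 5xFAD is a transgenic line that carries familial Alzheimer's disease mutations in transgenes driven by the neuronal Thy1 promoter. Each node and genotype gave 1 library. In addition, 1 dCLN library titled CD4 and labelled WT, and 1 library that mixed all 3 node types and both genotypes, were described without a test. The labels give neither the number of animals behind a library nor whether nodes came from the same animals, and cells carrying 4 different hashtags were pooled. The spread between libraries may therefore not be the spread between animals.

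The 8 tables held 1495 to 6049 productive TRA contigs, with a median of 4 to 6 unique molecular identifiers (UMIs, tags that count original RNA molecules) per contig. Any pair of these tables had 3 to 46 cell barcodes in common. Another table titled CD4, labelled 5xFAD, had 6829 of its 6915 barcodes in common with the CD4-titled table labelled WT, and was left out.

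The following joins show what a junction without added bases is made of, each with the end of the V germline, the start of the J germline and the observed junction. Capitals mark bases at the join that both germline segments could have given. In the first join, seen with TRAV14-2*02 and TRAJ12*01, no base could have come from both. The observed junction keeps V bases up to a point 4 bases short of the V end and J bases from the second base on.

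V germline end, TRAV14-2*02: tgtgcagcaagtg
J germline start, TRAJ12*01: ggggactggaggctataaagtggtcttt
Junction, TRAV14-TRAJ12: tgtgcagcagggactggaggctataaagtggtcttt

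In the next, TRAV12-2*02 with TRAJ33*01, 2 bases could have come from either segment, so the exact point of joining cannot be read.

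V germline end, TRAV12-2*02: tgtgctttgagtGA
J germline start, TRAJ33*01: tgGAtagcaactatcagttgatctgg
Junction, TRAV12-TRAJ33: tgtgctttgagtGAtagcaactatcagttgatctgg

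With TRAV5D-4*01 and TRAJ16*01, 4 bases were common to the V and J ends.

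V germline end, TRAV5D-4*01: tgtgctGCAAgtg
J germline start, TRAJ16*01: GCAActtcaagtggccagaagctggttttt
Junction, TRAV5-TRAJ16: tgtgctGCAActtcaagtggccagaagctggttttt

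Between 17.2% and 20.04% of distinct TRA junctions per main library had no added bases. In dCLN the share was 19.1% in WT (279 of 1459 junctions, exact 95% Clopper-Pearson interval 17.1% to 21.2%) and 17.2% in 5xFAD (607 of 3526, 15.98% to 18.5%). In sCLN it was 19.2% in WT (272 of 1420, 17.1% to 21.3%) and 17.2% in 5xFAD (498 of 2894, 15.9% to 18.6%). In iLN it was 18.8% in WT (385 of 2050, 17.1% to 20.5%) and 20.04% in 5xFAD (305 of 1522, 18.1% to 22.1%). The WT libraries were close to each other, whereas the 5xFAD iLN library was above both cervical 5xFAD libraries. These intervals cover counting error only. The CD4-titled library had the lowest share of the 8 tables at 15.9% (898 of 5650, 14.95% to 16.9%), and the mixed library had 17.5% (609 of 3476, 16.3% to 18.8%).

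The share did not differ between genotypes beyond the spread over node types. The WT libraries averaged 19.02% ± 0.21 and the 5xFAD libraries 18.2% ± 1.63 (SD, n = 3 libraries each). The 5xFAD minus WT difference was -1.91 percentage points in dCLN (95% counting interval -4.33 to 0.41), -1.95 in sCLN (-4.46 to 0.47) and 1.26 in iLN (-1.35 to 3.91). The share was thus lower in 5xFAD in 2 of 3 node types, with a mean difference of -0.865 percentage points ± 1.84 (SD, n = 3 node types; two-sided exact sign-flip permutation test, p = 0.5, and 0.625 after Benjamini-Hochberg adjustment over 5 comparisons of single values). The smallest p this design can give is 0.25. The 2 cervical differences have the same sign and the inguinal one the opposite sign, and that contrast between nodes was not tested.

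Just outside the definition, junctions with 1 added base made up 13.8% to 15.6% of junctions in the 6 libraries. Junctions with 2 added bases made up 17.8% to 18.6%. In all 8 tables a single added base was rarer than either 0 or 2, so the distribution had a peak at 0 apart from the one at 2. The median was 2 or 3 added bases per library, and the highest value per table lay between 14 and 21.

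**Figure D1:**
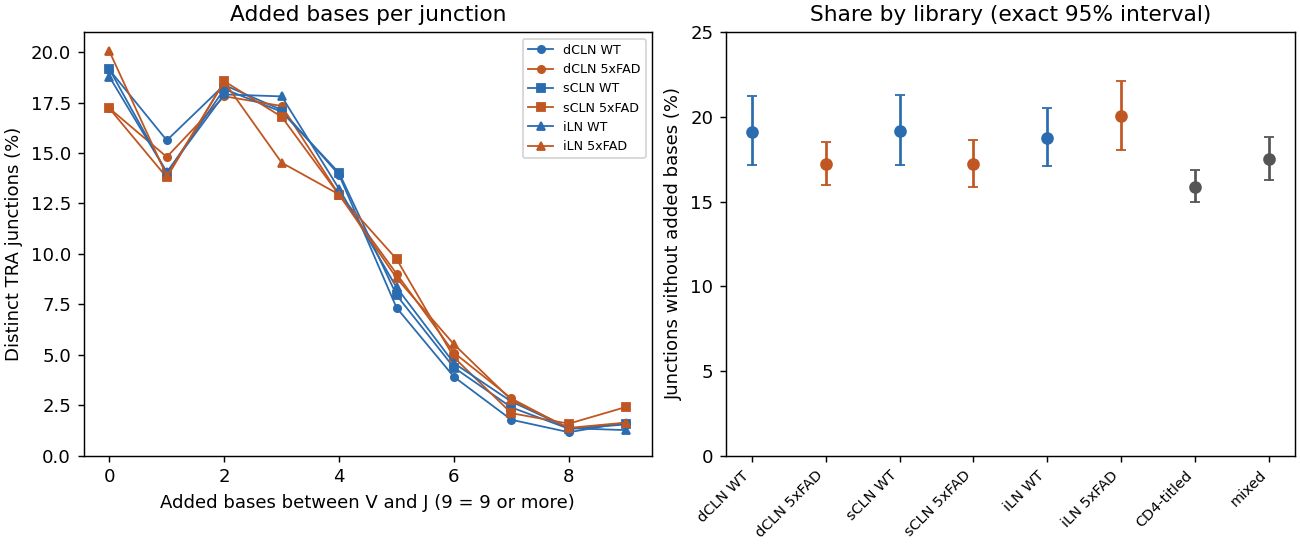
Left, the percentage of distinct TRA junctions (y) with each number of added bases between V and J (x, 9 stands for 9 or more) in the 6 main libraries, 1 line each. Right, the percentage without added bases in each of the 8 tables with its exact 95% interval. The lines dip at 1 added base, and the shares on the right run from 15.9% to 20.04%.

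Junctions without added bases were shorter, as described here without a test because length comes from the same alignment as the rule. Their mean length was 12.8 amino acids ± 0.07 and that of junctions with added bases 13.6 ± 0.06 (SD, n = 6 libraries), with medians of 13 and 14. In nucleotides the means were 38.4 ± 0.21 and 40.9 ± 0.17. The shorter length went with more V sequence: members kept 11.9 ± 0.14 bases of V inside the junction, against 11.2 ± 0.08 when bases had been added. The V end had lost 1.62 ± 0.08 bases in members and 2.03 ± 0.05 in the others, and the J start had lost 3.32 in both (SD 0.09 and 0.06). The V end was untrimmed in 39.7% ± 3.51 of members and 36.4% ± 1.19 of the others, and the J start in 15.1% ± 1.47 and 18.1% ± 0.87.

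The residues encoded differed most for proline. Proline made up 0.476% ± 0.054 of all junction residues in members and 1.54% ± 0.037 in the others (SD, n = 6), and was lower in 6 of 6 libraries. The ranges of the classes, 0.385% to 0.525% and 1.49% to 1.59%, did not overlap. Arginine was at 3.27% ± 0.24 against 3.82% ± 0.25, glutamate at 1.39% ± 0.14 against 1.87% ± 0.12 and methionine at 1.49% ± 0.23 against 1.96% ± 0.26, each lower in members in 6 of 6 libraries. Asparagine was higher in members in all 6, at 8.70% ± 0.47 against 8.03% ± 0.15. These residue shares follow partly from length, since the fixed cysteine alone made up 7.83% of residues in members and 7.35% in the others.

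Most members had at least 1 base that both segments could have given. Such an overlap could be read for 2325 of the 2346 members of the main libraries, and 1237 of these (53.2%) had 1 or more. No base was common in 46.7% ± 2.51 of members, 1 base in 27.7% ± 2.12, 2 bases in 15.95% ± 1.14, 3 bases in 6.35% ± 0.32 and 4 or more in 3.27% ± 1.13 (SD, n = 6 libraries). The longest overlap was 9 bases. Overlap was read by matching the J germline to the observed bases, so it can include positions that mismatch the called V allele. In members the last V mismatch lay 3 or more bases from the V end. Overlaps of 0 and 1 are therefore not affected, while some joins counted as 3 or more share fewer bases. With 0 overlap the lowest library was sCLN WT at 43.3% and the highest sCLN 5xFAD at 49.6%.

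A length of 0 between V and J did not mean that every base matched the called germline alleles. A mismatch to the called V or J allele lay inside the junction in 26.6% ± 2.78 of members and in 14.2% ± 2.59 of junctions with added bases (SD, n = 6), and was more frequent in members in each library. In members the V part carried one in 21.1% ± 1.69, against 6.52% ± 0.63 in the others. In the 8 tables together, 767 members had a V mismatch, and in 675 of them (88.0%) the last one lay 3 to 5 bases from the V end of the alignment. Whether such bases belong to another V allele or were added was not tested. Counting only members that match germline throughout, the share of junctions per table fell within 11.9% to 14.8%. The mismatch rate differed between tables: members carried one in 15.3% in the mixed library and 24.7% in the CD4-titled library, and junctions with added bases in 1.95% and 10.5%.

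**Figure D2:**
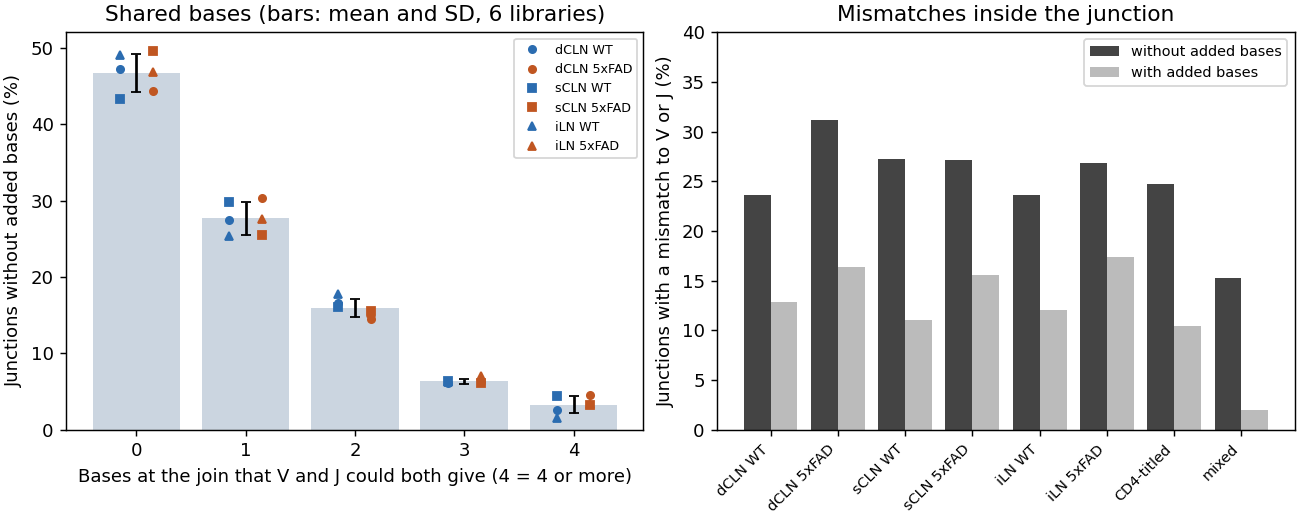
Left, the percentage of members (y) by the number of bases at the join that V and J could both give (x, 4 stands for 4 or more), with bars for the mean and error bars for the SD of the 6 libraries shown as points. Counts of 3 or more can include positions that mismatch the called V allele. Right, the percentage of junctions with a mismatch to the called V or J allele inside the junction, for members (dark) and junctions with added bases (light) in each of the 8 tables. The dark bar is higher in each table, from 15.3% in the mixed library to 31.1% in dCLN 5xFAD.

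Members used V and J genes at other frequencies than junctions with added bases did. Counts of distinct junctions per gene and class were compared within libraries with edgeR's quasi-likelihood test, which called 11 of 61 TRAV subgroups and TRAJ genes at an adjusted p under 0.05 (18.0%). Of the 61, 4 were used more (6.56%) and 7 less (11.5%) by members. The called set is made up of TRAV8, TRAJ5, TRAJ18 and TRAJ30 on the higher side and TRAV9, TRAV13, TRAJ21, TRAJ24, TRAJ34, TRAJ37 and TRAJ49 on the lower side. Across all features tested the median log2 fold change was 0.03, with 36 of 61 above 0, and 17 had an unadjusted p under 0.05. DESeq2 called 3 of the 11, namely TRAV8, TRAJ24 and TRAJ37, and counting TRAV by gene in place of subgroup gave 21 calls, 9 higher and 12 lower.

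TRAV8, a V gene subgroup with several near-identical copies in the mouse locus, had the highest share without added bases of the TRAV subgroups with at least 100 junctions. Of its junctions 25.3%, 32.5% and 30.1% had no added bases in WT dCLN, sCLN and iLN, and 24.2%, 28.6% and 33.6% in the same nodes of 5xFAD. All 6 values were above the share of all junctions in the same library. TRAV8 made up 10.1% ± 1.78 of members and 5.61% ± 0.86 of the other junctions (SD, n = 6), a log2 fold change of 0.82 (SE 0.10, edgeR adjusted p = 9.6e-08). With TRAV counted by gene, TRAV8-1, TRAV8D-1 and TRAV8D-2 were each called higher, with log2 fold changes of 0.73, 1.26 and 0.74. In the CD4-titled and mixed libraries the TRAV8 shares were 25.1% and 26.2%.

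Among TRAJ genes, TRAJ5 (GRCm38 chr14:54213777-54213838), which lies near the end of the TRAJ cluster far from the V genes, was also used more. Its share without added bases was 31.2%, 60.0% and 23.5% in dCLN, sCLN and iLN of WT and 27.3%, 37.5% and 23.8% in 5xFAD, over 10 to 33 junctions a library. The sCLN WT value of 60.0% stands apart from the other libraries and rests on 6 of 10 junctions. Members used TRAJ5 with a log2 fold change of 1.02 (SE 0.30, edgeR adjusted p = 0.015), a call lost without dCLN WT or without sCLN 5xFAD. In the CD4-titled library 15.4% of 65 TRAJ5 junctions had no added bases, against 15.9% of all its junctions, and in the mixed library 22.0% of 41.

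TRAJ18 (chr14:54200777-54200842), the J gene of the iNKT chain, and TRAJ30 (chr14:54189866-54189924) followed. TRAJ18 junctions had no added bases in 26.5% to 33.3% of cases in WT and 22.0% to 33.3% in 5xFAD, with a log2 fold change in use of 0.68 (SE 0.17, edgeR adjusted p = 0.0037). For TRAJ30 the ranges were 22.8% to 37.0% and 22.1% to 32.5%, with a log2 fold change of 0.66 (SE 0.16, edgeR adjusted p = 0.0038). The TRAJ30 call was lost when only members matching germline were counted (log2 fold change 0.34, edgeR adjusted p = 0.23) and when junctions with 1 added base were counted with the members (0.27, adjusted p = 0.26). In the CD4-titled library the share was 16.03% of 156 TRAJ18 junctions and 17.5% of 126 TRAJ30 junctions, beside 15.9% of all junctions. In the mixed library it was 23.1% and 22.3%, beside 17.5% of all. The iNKT chain gave 3 of the 93 TRAJ18 members.

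TRAJ24 (chr14:54195638-54195700) was nearly absent from members. Only 3 of its 114 junctions (2.63%) had no added bases. For WT the counts were 0 of 9 (dCLN), 1 of 13 (sCLN) and 0 of 16 (iLN), and 1 of 28, 1 of 31 and 0 of 17 in the same nodes of 5xFAD. Taking 3 divided by the number of junctions as an approximate upper limit, a count of 0 allows a share of up to 33.3%, 18.8% and 17.6% in the 3 libraries without a member. The log2 fold change in use was -2.94 (SE 0.57, edgeR adjusted p = 1.7e-04). In 110 of the 114 junctions (96.5%) the J part of the alignment began at base 8 of the called allele, and in none at base 1. All 3 members carried a mismatch inside the junction. The CD4-titled and mixed libraries held only 1 and 2 TRAJ24 junctions, of 5650 and 3476, none without added bases. Bases before the aligned J start count as added, and the part of this in the low share was not tested.

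TRAJ37 and TRAJ21, also on the lower side, differed from each other in where the J alignment began. TRAJ37 (chr14:54181518-54181577) had no added bases in 5.26%, 10.5% and 9.68% of junctions in dCLN, sCLN and iLN of WT and in 7.23%, 9.52% and 6.67% in 5xFAD, all 6 values below the library's own share. Its log2 fold change was -1.28 (SE 0.23, edgeR adjusted p = 9.2e-05), and 32.4% of its junctions kept the J segment from base 1. With germline matches only the TRAJ37 value was -2.81 (edgeR adjusted p = 7.4e-05). Most TRAJ37 members carried a mismatch and count as having added bases in that setting, which lowers the number of members by definition. The -2.81 is therefore not a measure of joining alone, and the part of the mismatches in it was not tested. TRAJ21 (chr14:54198790-54198846) had 20.5%, 7.14% and 14.3% in WT and 2.08%, 4.35% and 12.5% in 5xFAD, where dCLN WT is above the dCLN WT share and the other 5 are below their own. Its log2 fold change was -1.09 (SE 0.31, edgeR adjusted p = 0.0099), and in 146 of 241 junctions (60.6%) the J alignment began at base 4. The TRAJ21 call was lost without sCLN 5xFAD (-0.92) and with germline matches only (-1.03, edgeR adjusted p = 0.070). In the CD4-titled and mixed libraries the shares were 13.9% and 14.4% for TRAJ37 and 7.77% and 8.97% for TRAJ21, all below those of all junctions.

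TRAJ34 (chr14:54184699-54184756) and TRAJ49 (chr14:54168686-54168747) were lower by less. TRAJ34 had a log2 fold change of -0.56 (SE 0.19, edgeR adjusted p = 0.033), with shares of 9.26% to 18.4% in WT and 9.26% to 17.2% in 5xFAD. The call was lost without any 1 of 4 libraries, namely dCLN 5xFAD, sCLN WT, iLN WT or iLN 5xFAD. The TRAJ34 value was -2.84 (edgeR adjusted p = 4.7e-05) with germline matches only, where the 84.2% of its members with a mismatch count as having added bases. With at most 1 added base TRAJ34 was at -0.17 (edgeR adjusted p = 0.49). The call was also lost with ambiguous gene calls left out (-0.53, adjusted p = 0.073). TRAJ49 had -0.63 (SE 0.19, edgeR adjusted p = 0.015), with 12.2% to 15.7% in WT and 6.34% to 20.6% in 5xFAD, and was not called without dCLN 5xFAD (-0.36), without sCLN 5xFAD (-0.70) or with germline matches only (-0.47). With at most 1 added base it was -0.41 and still called. In the CD4-titled and mixed libraries the shares were 10.2% and 14.9% for TRAJ34 and 13.3% and 10.6% for TRAJ49, all below those of all junctions.

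Of the V genes on the lower side, TRAV13 was the more frequent. It had no added bases in 13.3% to 14.8% of junctions in WT and 12.6% to 15.4% in 5xFAD, a narrow range over 185 to 531 junctions a library. Members used it less in 6 of 6 libraries, with a log2 fold change of -0.43 (SE 0.09, edgeR adjusted p = 9.2e-05). TRAV9 had -1.12 (SE 0.38, edgeR adjusted p = 0.032), with 15 of 165 junctions without added bases. In iLN 5xFAD 3 of 6 TRAV9 junctions had none, against 2.33% to 11.8% in the other 5 libraries, and the call was lost without dCLN WT, sCLN 5xFAD or iLN WT (log2 fold change -0.73 without the last). It was also lost with germline matches only (-0.83, edgeR adjusted p = 0.17) and with at most 1 added base (-0.52, adjusted p = 0.18). In the mixed library 18.8% of 245 TRAV9 junctions had no added bases, above the 17.5% of all its junctions, and in the CD4-titled library 11.9% of 445, below its 15.9%. For TRAV13 these shares were 16.3% and 13.1%, both below those of all junctions.

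Counted by gene, near-identical copies of some subgroups went opposite ways, though reads of such copies can be assigned to either. TRAV16 was used less by members (log2 fold change -0.95) and TRAV16D/DV11 more (0.78), and the subgroup as a whole was at -0.08 (edgeR adjusted p = 0.76). TRAV7-2 was used less (-0.60) and TRAV7D-2 more (2.14). These 4 genes were chosen after their values were seen.

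By position in the locus, the share was highest for the J genes farthest from the V genes. TRAJ2 to TRAJ20 had no added bases in 22.0% ± 2.46 of junctions (SD, n = 6), with 11 of 13 genes above a log2 fold change of 0, 2 called higher and none lower, and a median of 0.20. TRAJ21 to TRAJ30 had 18.7% ± 1.39, a median of 0.15, and 1 gene called higher and 2 lower of 8. TRAJ31 to TRAJ40 had 16.5% ± 1.89, a median of -0.05, and 2 of 8 genes lower. TRAJ41 to TRAJ49 had 16.2% ± 2.30, a median of -0.12, and 1 of 7 genes lower. TRAJ50 to TRAJ58, next to the V genes, had 19.04% ± 1.54 and a median of 0.14, with none of 6 genes called. The order was therefore not monotonic, and across 42 TRAJ genes the Spearman correlation of the share with the gene number was -0.29. The same correlation with the mean number of bases trimmed from J was -0.18, and with the mean overlap 0.19 across 40 genes. These points share libraries and are given as a description.

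**Figure D3:**
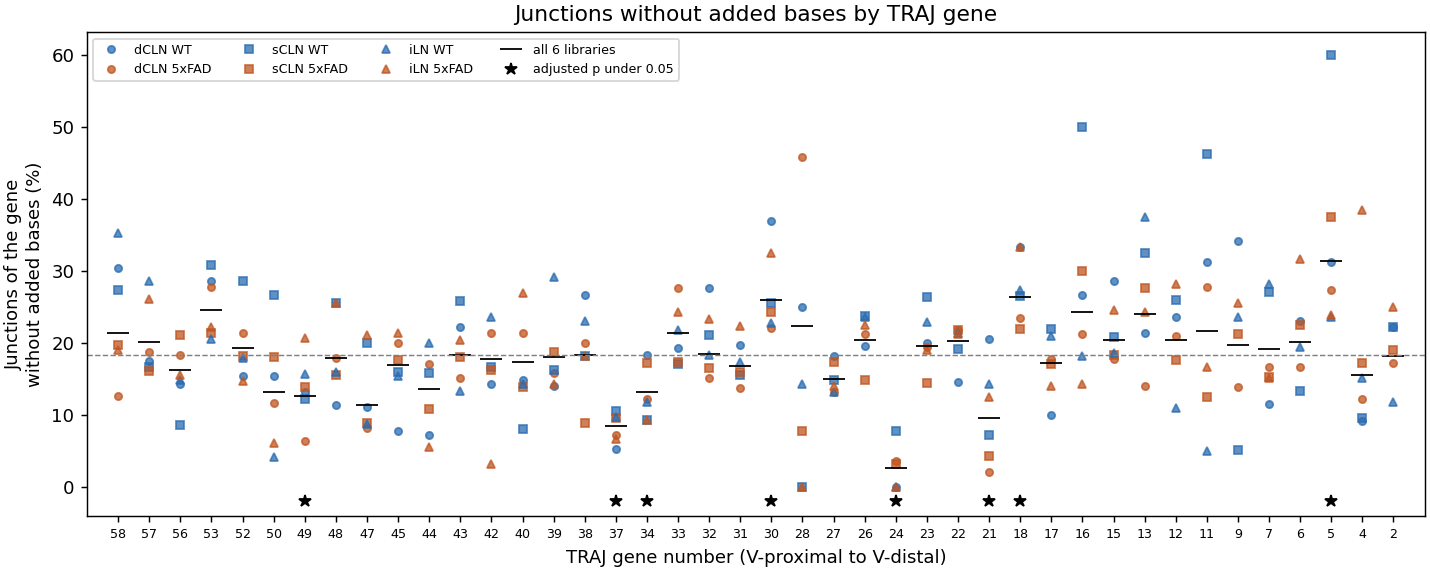
The percentage of distinct junctions without added bases (y) for each tested TRAJ gene, ordered from the V-proximal TRAJ58 to the V-distal TRAJ2 (x), with 1 point per main library, a black line for all 6 libraries together, a dashed line for all genes, and a star where edgeR called the gene. TRAJ24 lies lowest at 2.63%, and the sCLN WT point of TRAJ5 at 60.0% is the highest.

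No V or J gene was called for a genotype difference in its share without added bases. The class by genotype term in edgeR called 0 of 61 features (0%), with 6 at an unadjusted p under 0.05, and DESeq2 called 0 as well. The lowest p values belonged to TRAJ40, TRAJ58, TRAJ21 and TRAJ13, each at an edgeR adjusted p of 0.48. TRAJ58 (chr14:54157280-54157342) had shares of 30.4%, 27.3% and 35.3% in dCLN, sCLN and iLN of WT and 12.7%, 19.6% and 19.05% in 5xFAD, at an interaction log2 fold change of -1.17 (SE 0.50). These TRAJ58 shares rest on 7 of 23, 3 of 11 and 12 of 34 junctions in WT and 9 of 71, 11 of 56 and 4 of 21 in 5xFAD. TRAJ40 had 14.9%, 8.0% and 14.3% in WT and 21.4%, 13.9% and 26.9% in 5xFAD.

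When only members matching germline were counted, 3 genes were called for a genotype difference, TRAJ34, TRAJ37 and TRAJ45, all lower in 5xFAD. The mismatch rate of these genes itself differed with genotype. For TRAJ37, 34.4% of all junctions in WT and 97.7% in 5xFAD carried a J mismatch inside the junction. For TRAJ34 these were 50.3% and 100%, and for TRAJ45 50.4% and 87.2%, while TRAJ47 was at 100% in both. In this setting a junction with a mismatch cannot be a member, so a higher mismatch rate in 5xFAD lowers its members by definition. The 3 calls are therefore not a measure of joining alone, and the part of the mismatches in them was not tested.

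The same amino acid junction was found in another table far more often when it had no added bases. Of the members, 71.0%, 69.9% and 71.4% recurred in at least 1 of the other 7 tables in dCLN, sCLN and iLN of WT, and 66.7%, 70.9% and 67.2% in 5xFAD. Of junctions with added bases, 33.8%, 31.7% and 33.1% recurred in WT and 33.4%, 32.5% and 32.5% in 5xFAD. The lowest value of members thus stood well above the highest of the others. The mean was 69.5% ± 2.04 against 32.8% ± 0.77, a difference of 36.7 percentage points ± 2.16 (SD, n = 6, higher in 6 of 6 libraries; two-sided exact sign-flip permutation test, p = 0.031). That is the smallest p that 6 libraries can give, and it was 0.078 after adjustment over the 5 comparisons. A junction found in several libraries counts in each, so the libraries are not independent. The CD4-titled library gave 65.1% and 28.3% and the mixed library 63.1% and 28.0%.

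Mean recurrence was lower with each further added base. From 69.5% without added bases it went to 50.5% ± 3.25 with 1, 45.4% ± 1.88 with 2, 31.2% ± 1.84 with 3, 25.3% ± 3.50 with 4, 18.5% ± 2.38 with 5 and 10.2% ± 3.75 with 6 (SD, n = 6). With 7 or more it was 9.84% ± 1.55. The difference between classes was present at each length from 10 to 16 amino acids. At 13 amino acids 72.2% ± 4.33 of 722 members and 38.6% ± 2.31 of 2724 other junctions recurred, and at 15 amino acids 67.04% ± 12.8 of 153 and 23.3% ± 3.66 of 1744.

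**Figure D4:**
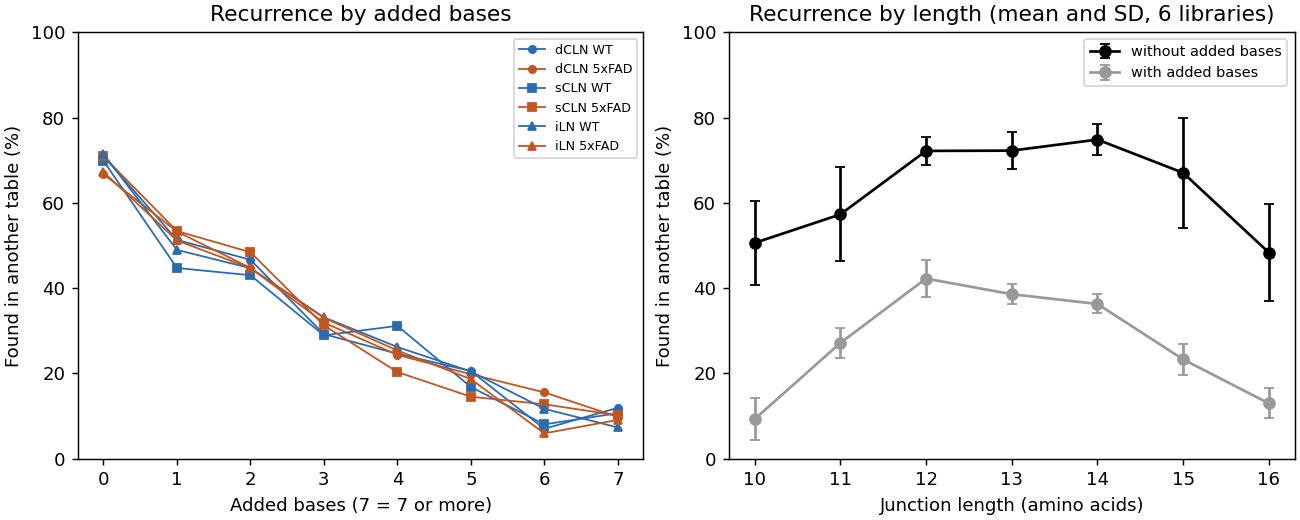
Left, the percentage of distinct junctions whose amino acid sequence was found in at least 1 other table (y) against the number of added bases (x, 7 stands for 7 or more), 1 line per main library. Right, the same percentage by junction length in amino acids for members (black) and junctions with added bases (grey), as the mean and SD of 6 libraries. The black line lies above the grey one at each length, for example 74.8% against 36.3% at 14 amino acids.

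With the other junctions weighted to the lengths of members, 35.4% of them recurred and the difference was 34.2 percentage points. Weighting to length and TRAJ gene together gave 38.6% and a difference of 32.2. Searching only tables labelled with the other genotype left 41.1% ± 7.39 against 15.8% ± 2.61. The genotype of the CD4-titled table rests on its label alone, so animals in common were not excluded for it. Asking for the same nucleotides left 43.8% ± 3.68 against 11.02% ± 0.63. Leaving out the iNKT and MAIT chains changed the members' value to 69.3%.

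Members also spread over more tables. Of the 2346, 30.7% were found in 1 table only, against 67.1% of the 10525 with added bases. At the other end, 51 members (2.17%) and 13 others (0.124%) had an amino acid junction found in all 8 tables. A protein junction counts here for each library, TRAV subgroup and nucleotide form, so widely found ones weigh more. The 51 members are repeats of 6 protein junctions. Recurring members usually recurred with the same genes: of 1626, 1625 had the same TRAJ gene elsewhere and 1264 (77.7%) the same TRAV subgroup and TRAJ gene. The same nucleotide junction was found elsewhere for 1016 (62.5%). In 1376 (84.6%) at least 1 of the recurrences was itself without added bases, and in 699 (43.0%) all were, so most also occurred elsewhere in a form with added bases.

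Members with 2 or more overlapping bases recurred more than members with none. The values were 72.9% and 64.1% for dCLN of WT, then 72.2% and 67.2% for sCLN and 77.6% and 64.9% for iLN. In 5xFAD they were 71.1% and 62.9% in dCLN, 75.6% and 66.5% in sCLN and 76.6% and 56.03% in iLN. The mean difference was 10.7 percentage points ± 5.43 (SD, n = 6, higher in 6 of 6; two-sided exact sign-flip permutation test, p = 0.031, the smallest possible, and 0.078 after adjustment over 5). It was 19.9 points when only members matching germline were counted.

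Of the protein junctions that had a form without added bases, the 10 found in most tables in any form are printed with capitals for the J part of the commonest nucleotide form without added bases, so that the letters change case where V meets J. They show how 1 protein junction arose from several V genes and nucleotide forms. Each is named by its J gene and by a V subgroup of the printed form, and its other contigs encode the same amino acids.

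TRAV4-TRAJ12: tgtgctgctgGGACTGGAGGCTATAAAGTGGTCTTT
TRAV6-TRAJ18: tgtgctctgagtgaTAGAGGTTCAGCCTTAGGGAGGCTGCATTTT
TRAV14-TRAJ13: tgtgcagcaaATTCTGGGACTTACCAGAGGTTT
TRAV1-TRAJ33: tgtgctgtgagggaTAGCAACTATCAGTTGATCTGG
TRAV12-TRAJ33: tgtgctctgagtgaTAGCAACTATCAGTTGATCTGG
TRAV6-TRAJ30: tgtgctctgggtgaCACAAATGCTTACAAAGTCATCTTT
TRAV7-TRAJ22: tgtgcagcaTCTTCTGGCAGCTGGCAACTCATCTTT
TRAV4-TRAJ22: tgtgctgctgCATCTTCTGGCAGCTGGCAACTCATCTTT
TRAV14-TRAJ18: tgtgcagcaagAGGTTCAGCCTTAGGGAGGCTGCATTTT
TRAV14-TRAJ22: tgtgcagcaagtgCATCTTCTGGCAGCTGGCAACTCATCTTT

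The TRAV4-TRAJ12 junction was carried by 27 contigs in 8 tables, with 5 TRAV subgroups and 8 nucleotide forms, of which 4 had no added bases. The TRAV6-TRAJ18 junction had 23 contigs in 8 tables, 15 of them without added bases, and its commonest form carried a mismatch to the called allele in at least 1 table. The TRAV14-TRAJ13 junction, the shortest of the 10, had 14 contigs in 8 tables, with 7 TRAV subgroups, and 13 of the contigs had no added bases. The TRAV7-TRAJ22 junction had the most TRAV subgroups of the 10, with 9 joined to TRAJ22 in 7 tables.

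The TRAV6-TRAJ30 junction had 23 contigs in 8 tables from 3 nucleotide forms, all 3 with members, and 20 contigs without added bases. The TRAV12-TRAJ33 junction had 17 contigs in 8 tables, 16 without added bases, and its commonest form, found in 7 tables, carried a mismatch in at least 1 of them. The TRAV14-TRAJ22 junction had the most contigs, 37 in 7 tables from 7 nucleotide forms, of which 31 contigs had no added bases. In its commonest form, TRAV14 kept its full germline end and no base could have come from both segments. By contrast the TRAV4-TRAJ22 junction was found in 7 tables but without added bases in 3 of them, with 4 of 19 contigs.

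The MAIT chain, which pairs TRAV1 with TRAJ33 in a junction of 12 amino acids and recognises vitamin B metabolites on MR1, was mostly a member. Of 29 such contigs in the 6 main libraries, 25 had no added bases. Counted as distinct junctions these were 10 of 14, and the 6 contigs of sCLN WT were 1 distinct junction. Some of the member forms carried a mismatch to the called allele. The form printed above for the TRAV1-TRAJ33 junction was carried by 22 TRAV1 contigs in 7 of the 8 tables, and 3 of its bases could have come from either segment. Per library the counts of MAIT contigs without added bases were 5 of 6, 6 of 6 and 5 of 5 in WT dCLN, sCLN and iLN, and 3 of 3, 2 of 5 and 4 of 4 in the same nodes of 5xFAD. The counts are too small to compare nodes or genotypes. TRAV1 as a whole (chr14:52427928-52428876) was not called, with 18.6% of 183 junctions without added bases, nor was TRAJ33 (chr14:54185358-54185414), with 21.3% of 352.

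The iNKT chain, which pairs TRAV11 with TRAJ18 in a junction of 15 amino acids and recognises lipids on CD1d, had 1 protein junction in 4 nucleotide forms that differ at the glycine codon. Capitals mark the J part, and the last lower-case letter of the final 2 forms is the 1 added base.

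iNKT form 1, no added base: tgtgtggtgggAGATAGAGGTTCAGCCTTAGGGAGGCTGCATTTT
iNKT form 2, no added base: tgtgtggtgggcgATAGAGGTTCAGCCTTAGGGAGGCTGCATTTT
iNKT form 3, 1 added base: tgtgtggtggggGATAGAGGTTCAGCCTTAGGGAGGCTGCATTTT
iNKT form 4, 1 added base: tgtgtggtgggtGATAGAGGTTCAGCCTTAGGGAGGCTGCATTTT

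The form with an added guanine was the commonest, with 9 contigs in the 3 WT main libraries, and the form joined with 1 overlapping base had 6 contigs in sCLN WT, iLN WT and the mixed library. Of 16 iNKT contigs in the main libraries, 5 had no added bases: 0 of 3 from dCLN, 3 of 6 from sCLN and 2 of 7 from iLN, all in WT. The 3 contigs of the mixed library all had none. The 5xFAD main libraries held no iNKT contig. With 3 divided by the number of contigs as an approximate limit, this allows up to 0.082%, 0.099% and 0.192% of productive TRA contigs in dCLN, sCLN and iLN. The CD4-titled library, labelled WT, held none either, which allows up to 0.050%. The protein junction was thus the same whether or not a base had been added. TRAV11 as a whole (chr14:53519303-53519859) had 10 of 31 junctions without added bases and was not called (log2 fold change 1.02, SE 0.64, edgeR adjusted p = 0.37).

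The beta chain of the same cell did not differ with the alpha class beyond the spread between libraries. Among cells whose beta chain had a D call, the beta junction had no added bases in 9.30% of 172 cells with an alpha member and 6.31% of 729 other cells in dCLN WT. The pairs were 9.09% and 6.51% for WT sCLN and 5.93% and 8.65% for WT iLN. In 5xFAD they were 7.26% and 8.07% in dCLN, 7.40% and 6.63% in sCLN and 6.95% and 7.22% in iLN. The beta share was higher beside an alpha member in 3 of 6 libraries, with a mean difference of 0.423 percentage points ± 2.16 (SD, n = 6; two-sided exact sign-flip permutation test, p = 0.719, and 0.719 after adjustment over 5). This comparison, the one by overlap and the next were added after the data were seen.

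In cells with 2 alpha chains, a partner without added bases was found beside a member in 21.1%, 40% and 16.7% of cases in dCLN, sCLN and iLN of WT, and in 23.3%, 14.04% and 26.7% in 5xFAD. Beside a chain with added bases it was found in 16.5%, 14.6% and 16.5% in WT and 15.9%, 15.6% and 18.6% in 5xFAD. The difference was 7.36 percentage points ± 9.65 (SD, n = 6, higher in 5 of 6; two-sided exact sign-flip permutation test, p = 0.094, and 0.156 after adjustment over 5), over 37 to 186 such cells a library. Each chain was a case, so a cell with a member in both chains counted 2 times. Such cells numbered 2 to 7 a library. In sCLN WT they were 5, beside 15 cells with a member in 1 chain.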

How the data were processed

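Each table lists assembled receptor contigs, with V, D and J genes called in the IgBLAST AIRR column format, per the file headers. The submitters' processing notes name Cell Ranger 6.0.1, Seurat 4.1.0 and mm10 without a role. The deposited counts are UMI counts per contig, unnormalized. The deposited fraction is the V identity, per the file headers, used in 1 alternative. The 6 main libraries held productive contigs only.

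Productive TRA contigs were reduced to distinct TRAV subgroup, TRAJ and junction nucleotides per table, with the contig of most UMIs representing each. In 19 cases contigs of 1 junction fell in both classes. Use was tested with edgeR 4.0.16 (R 4.3.3; quasi-likelihood, library as block, the number of junctions as offset, features with at least 10 junctions, Benjamini-Hochberg threshold 0.05), and tested on simulated data. The simulated counts had a dispersion of 0.005. Of the changes put in, 48.8% of 1.5-fold and 81.2% of 2-fold ones were recovered, and 5.02% of calls were false. Genes not called may therefore still differ. Standard errors follow from the test's p-value. Single values were compared by exact sign-flip permutation tests over libraries or node types (scipy 1.17.1). Gene positions are from GENCODE on GRCm38. DESeq2 1.42.0 was an alternative. Doublets were not called.

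Members, lists and tests were chosen with earlier results of these data known. Named genes were the called features with at least 100 junctions, up to 8 per direction, plus TRAV1, TRAV11, TRAJ18 and TRAJ33, and for the genotype term the 4 with the lowest p. Named junctions were the 10 in most tables, plus the iNKT and MAIT chains. TRAJ45, TRAJ47 and residues were named after their values were seen.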

Additional observations from a re-analysis of the deposited data

Results flagged for a closer look

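The genotype difference in the share of junctions without added bases had opposite signs in different nodes. The 5xFAD minus WT difference was -1.91 percentage points in dCLN and -1.95 in sCLN, where WT was higher, and 1.26 in iLN, where 5xFAD was higher. It was singled out because the only library pair of iLN went one way and the pairs of both cervical nodes the other. With 1 library per node and genotype the difference between nodes was not tested, and each counting interval includes 0.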

How the results depend on the processing

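The genotype difference in the share kept its sign in all 15 alternatives (-1.93 to -0.324 percentage points), with no p under 0.5. Leaving out either library of a node removed the same pair and gave the same value, so these alternatives are not all distinct. With 2 node types left, the sign-flip test cannot give p under 0.5. For gene use, DESeq2 gave 3 calls, with either dispersion trend, and counting TRAV by gene gave 21, against 11. Leaving out 1 library gave 7 to 11 calls, the 7 without sCLN 5xFAD. The genotype term gave 3 calls when only members matching germline were counted and 0 in the other 15 alternatives. The recurrence difference was 25.3 to 39.2 points over 16 alternatives, the lowest against the other genotype only. Leaving out 1 library gave 35.5 to 36.9 points, and for members with 2 or more overlapping bases 9.62 to 13.5 points, where 5 libraries cannot give p under 0.0625. TRAV1 use was not called and changed sign with at most 1 added base (-0.28), with germline matches only (-0.16), without dCLN 5xFAD and without iLN 5xFAD (-0.031 and -0.0235, the range without 1 library being -0.031 to 0.131). The beta chain difference changed sign without dCLN WT (-0.091) and without sCLN WT (-0.0082), with 1.05 as its highest value. The second alpha chain difference was 1.42 with germline matches only and 3.75 to 9.14 without 1 library. The causes were not tested. Libraries were paired by node or classes compared within a library, and no replicate block was fitted because each group has 1 library and the labels carry no replicate numbers. Among named genes, TRAV11 rests on as few as 2 junctions a library and TRAV9 on 6, which limits their shares.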

Other observations

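Nonproductive TRA contigs were listed only in the CD4-titled and mixed libraries. Of 37 in the CD4-titled library, 6 had no added bases, and of 32 in the mixed library, 5. They entered no comparison.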
